A study of Mus musculus with 22 samples.

Results

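The 10 Oas genes of the mouse, *Oas1a* to *Oas1h*, *Oas2* and *Oas3*, were followed in the transcriptomes of fully-grown germinal vesicle (GV) oocytes. They were found by GENCODE symbol and are 10 of the 52636 genes in the table. All 22 samples come from C57BL/6 females, and RNA was extracted from 25 oocytes at a time. A single-end run (50-base reads, no age in the sample labels) compared 3 wild-type samples with 4 samples homozygous for the Dicer ΔMT allele (Dicer ΔMT/ΔMT), 3 homozygous for the Dicer SOM allele (Dicer SOM/SOM) and a single Dicer ΔMT/WT sample. In a paired-end run (75-base reads) every female carried both the Dicer SOM and the Mili DAH allele, the controls included. Its 4 heterozygous controls had 1 copy of each and were aged 36, 38, 10 and 17 weeks. The 4 double mutants were homozygous for both, at 40, 35, 11 and 11 weeks. Homozygous for SOM but heterozygous for DAH were the 2 RNAi mutants, at 17 and 13 weeks, and the reverse held for the single piRNA mutant, at 16 weeks. ΔMT removes the retrotransposon-derived promoter of the oocyte Dicer isoform, SOM leaves HA-tagged full-length Dicer, and DAH inactivates the slicer of the piRNA pathway. All SOM animals descend from 1 embryonic stem cell clone. In bulk oocyte RNA, fewer expressing cells and less RNA per cell cannot be told apart.

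Oligoadenylate synthetases bind double-stranded RNA and, when active, join ATP into short 2'-5'-linked oligoadenylates (2-5A). These act as a second messenger of the antiviral response. In most cells the active enzymes are induced by interferon. The mouse has many *Oas1* copies in a row, and several of them have lost the active site. *Oas1d* is known as an inactive protein of the ovary and the early embryo, and *Oas1b* as a flavivirus resistance gene that laboratory strains carry in a shortened form. The oocyte is a cell in which RNA interference (RNAi), rather than interferon, answers long double-stranded RNA, and Dicer makes its small RNAs.

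The active site is held by aspartates, of which a pair stands close together with a single residue between. The coding stretches around that pair are shown because the level of a member in the oocyte parted along them. Each is 39 bases long, from the GRCm38 reference annotation, 5' to 3', with the codons of the pair and the codon between them in capitals.
Oas1a: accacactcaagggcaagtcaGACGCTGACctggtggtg
Oas1g: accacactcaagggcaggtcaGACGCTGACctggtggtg
Oas1b: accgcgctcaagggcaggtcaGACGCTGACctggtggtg
Oas2: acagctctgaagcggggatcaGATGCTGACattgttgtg
Oas3: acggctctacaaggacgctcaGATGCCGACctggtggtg
Oas1h: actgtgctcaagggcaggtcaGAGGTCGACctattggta
Oas1c: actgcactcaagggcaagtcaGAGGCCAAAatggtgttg
Oas1f: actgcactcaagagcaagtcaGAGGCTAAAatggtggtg
Oas1d: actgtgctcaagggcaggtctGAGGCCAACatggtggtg
Oas1e: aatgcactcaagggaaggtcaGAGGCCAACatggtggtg
*Oas1a*, *Oas1g*, *Oas1b*, *Oas2* and *Oas3* had an aspartate codon (GAC or GAT) at both outer positions. In *Oas2* and *Oas3* this is the last of the repeated synthetase units. *Oas1c*, *Oas1d*, *Oas1e* and *Oas1f* had the glutamate codon GAG first and a lysine (AAA) or asparagine (AAC) codon last, so both aspartates were missing in these 4. *Oas1h* lacked the first and kept the last. The longest reading frames had 356 to 369 codons in the *Oas1* members other than *Oas1b*, which had 251. Those of *Oas2* and *Oas3* had 751 and 1138. All 10 stretches lie in coding exons on chromosome 5, for instance chr5:120905825-120905863 on the minus strand in exon 2 of *Oas1a* and chr5:120808189-120808227 on the minus strand in exon 3 of *Oas1c*. The protein sequences were not used here.

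RefSeq promoters on GRCm38.p6, 250 bases before to 50 after the start, were at hand for 6 of the 10 members. They were searched on both strands for the interferon-stimulated response element, read here as 2 GAAA units with 2 bases between them. It was found in 3.44% of 32851 promoters. *Oas3* (chr5:120777610-120777909, minus strand) held it once, 75 bases before the start on the gene's own strand. *Oas1a* held 2 overlapping copies that begin 20 and 14 bases before the start, and *Oas1g* 2 that begin 18 and 12 bases before it. *Oas1c* (chr5:120812465-120812764, minus strand) held 2 overlapping copies on the opposite strand, reaching from 114 bases before the start. *Oas1b* is on that opposite strand, and its start at 120812635 falls inside this window. The copies therefore also stand before the start of *Oas1b*, on its own strand. Read on that strand, their letters are the same as those in *Oas1a* and *Oas1g*. To which of these neighbours the copies belong was not tested. *Oas1f* and *Oas1h* held none. The promoters of *Oas3*, the member that rose most, and of *Oas1c*, with the highest mean in wild type, are printed with these letters in capitals.
Oas3: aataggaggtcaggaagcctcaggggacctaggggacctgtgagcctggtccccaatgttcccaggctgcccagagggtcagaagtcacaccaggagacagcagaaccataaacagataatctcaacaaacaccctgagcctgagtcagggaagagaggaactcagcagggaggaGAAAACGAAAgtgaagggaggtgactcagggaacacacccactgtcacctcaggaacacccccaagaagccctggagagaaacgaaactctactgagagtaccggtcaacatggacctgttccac
Oas1c: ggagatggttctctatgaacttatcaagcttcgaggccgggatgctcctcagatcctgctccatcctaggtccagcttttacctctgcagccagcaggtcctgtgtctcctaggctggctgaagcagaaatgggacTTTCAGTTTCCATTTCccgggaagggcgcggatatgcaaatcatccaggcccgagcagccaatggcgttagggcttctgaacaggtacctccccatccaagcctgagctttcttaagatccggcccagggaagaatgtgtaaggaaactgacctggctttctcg
The letters CANNTG, an E-box that 72.3% of all promoters hold, were in *Oas1f* and *Oas1h* and in none of the other 4. CACGTG (7.15% of promoters) and the oocyte factor NOBOX's element TAATTG (8% of promoters) were in none of the 6. A match is a stretch of letters and not a measured binding site.

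The table gives raw estimated counts, in which a read that fits several places is divided between them. Summed over genes, single-end samples held from 6468380 (Dicer SOM/SOM replicate 3) to 90713013 counts, and paired-end samples from 22928936 to 43540806. Levels are given in CPM (counts scaled to library size after TMM normalization). A floor of 3 counts equals 0.0331 to 0.464 CPM and covers counting error only. The floor and the levels of *Gm42418* are CPM without TMM normalization. *Dicer1* stood at 47.8% of the control mean in Dicer ΔMT/ΔMT, 4.89% in Dicer SOM/SOM, 9.06% in RNAi mutants and 9.02% in double mutants, as the labels say. The DAH allele changes the protein, so counts of Mili do not check it. The 12 GV oocyte markers summed to between 13290 and 16973 CPM in every sample, 10 granulosa cell markers to 80.7 to 148 CPM, and the pan-leukocyte markers *Ptprc* and *Coro1a* to at most 0.701 CPM. The paired-end libraries fell into 5 with 299 to 567 CPM of the ribosomal RNA gene *Gm42418* and 6 with 4120 to 5520 CPM. Both sets hold 2 double mutants and 2 heterozygous controls, both RNAi mutants are among the 6, and the piRNA mutant is among the 5. In the single-end run SOM/SOM replicates 3 and 1 had 18570 and 13030 CPM of *Gm42418*, and all other samples 4788 to 7749. The part of this in the levels of that run was not tested.

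The members lie in 191.3 kb of chromosome 5 (GRCm38), in the order *Oas2*, *Oas3*, *Oas1e*, *Oas1c*, *Oas1b*, *Oas1f*, *Oas1h*, *Oas1g*, *Oas1a* and *Oas1d*. The outermost bases are 120730333 and 120921652. Together they took 0.257% to 0.285% of all counts in wild type. Per kb of exons, 5 members made up 99.5% of the members' summed level in wild type and in heterozygous controls. These were *Oas1c*, *Oas1e* and *Oas1d*, which the choice of genes already set apart as expressed in oocytes, and also *Oas1h* and *Oas1f*. They are the same 5 that lack 1 or both aspartate codons. The other 5 added 0.523% in wild type and 0.497% in controls.

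**Figure D1:**
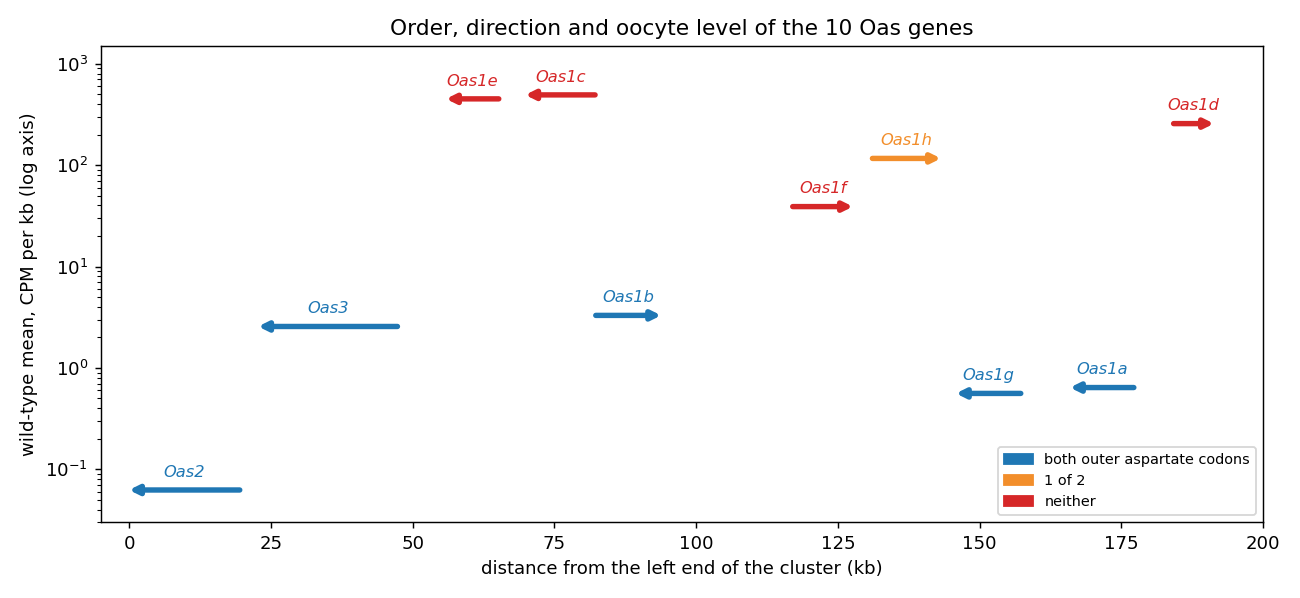
The 10 Oas genes by distance in kb from the left end of their cluster and by wild-type mean level in CPM per kb of exons on a log axis (n = 3). Arrows point in the direction of transcription and colours give the number of outer aspartate codons. The 5 genes that lack 1 or both lie between 39 and 493.2 CPM per kb and the other 5 between 0.0624 and 3.29.

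In wild type, *Oas1c* led with 497, 502 and 481 CPM per kb, a mean of 493.2 ± 11.2 (SD, n = 3). This placed it at rank 52 of the 33521 genes with a count. *Oas1e* followed with 442, 421 and 490 CPM per kb (mean 451 ± 35.3), and its range overlapped that of *Oas1c*. *Oas1d* had 239, 255 and 277 (mean 257 ± 19.1), at rank 153. *Oas1h* had 112, 109 and 128 (mean 117 ± 10.3), and *Oas1f* 38.9, 42.3 and 35.8 (mean 39 ± 3.27). A gap of 11.8 times separated *Oas1f* from the next member, *Oas1b*, at 3.29 ± 0.168 CPM per kb. *Oas3* had 2.56 ± 0.308, *Oas1a* 0.640 ± 0.354, *Oas1g* 0.560 ± 0.154 and *Oas2* 0.0624 ± 0.0463. Sample ranges of neighbours in this order overlapped for *Oas1c* with *Oas1e* and for *Oas1a* with *Oas1g*, and for no other pair.

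The order in heterozygous controls was the same except within the pairs *Oas1c* and *Oas1e* and *Oas1a* and *Oas1g*. *Oas1e* had 392 ± 50.9 CPM per kb (SD, n = 4), *Oas1c* 381 ± 51.2, *Oas1d* 241 ± 33 and *Oas1h* 110 ± 15.5. *Oas1f* was at 16.7 ± 1.15 CPM per kb there, with 15.2 to 17.8 in the 4 samples, against 35.8 to 42.3 in wild type. The runs differ in read length, read type, instrument, sequencing facility and genotype, and ages are given only for the paired-end run. These cannot be told apart for this difference in level. *Oas1b* with 2.66 ± 0.98 and *Oas3* with 2.23 ± 0.235 overlapped in the controls. *Oas1g* had 0.457 ± 0.191, *Oas1a* 0.254 ± 0.0731 and *Oas2* 0.0868 ± 0.042.

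How far reads can be assigned to 1 copy differed between members. Of all 50-base stretches of the transcript, 57.6% in *Oas1a* and 54.7% in *Oas1g* also occur in another gene, mainly in each other, and 47.6% and 44.6% of 75-base stretches. Their coding sequences are 96.7% identical, so their separate values are uncertain. For *Oas1c* the share of 50-base stretches was 16.3%, for *Oas1e* 11.3%, for *Oas1d* 6.24%, for *Oas1b* 3.42% and for *Oas1f* 2.94%. *Oas1h* had 0.484%, *Oas3* 0.792% and *Oas2* none. *Oas1d* and *Oas1e*, the next closest pair, are 90.8% identical. Counting ignored strand, and 223 exon bases of *Oas1c* (9.73%) overlap the antisense gene *Gm43069*, whose level did not pass the test in any comparison. *Oas1b* is low beside close abundant relatives, with 0.239% to 0.762% of the *Oas1c* counts in all samples, and mapping allowed mismatches. The part of misplaced reads in its values was not tested.

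All 10 members were tested in each comparison with the quasi-likelihood test of edgeR, with Benjamini-Hochberg adjustment over all tested genes, and called at an adjusted p under 0.05. In Dicer ΔMT/ΔMT against wild type, 1 of 10 members was called higher, where 8.06% of 23151 tested genes were, and 2 were called lower, where 7.3% were. In Dicer SOM/SOM against wild type, 2 were called higher (14.5% of all tested genes) and 3 lower (14.2%). Between these mutants, 1 was called, against 7.35% of all tested genes. In RNAi mutants against heterozygous controls, 1 was called, against 10.7% of 20989 genes. In double mutants against controls, 1 was called higher (12.3% of genes) and 3 lower (8.83%). From RNAi to double mutants, 0 members were called by edgeR, against 0.314% of genes, although *Oas3* had an unadjusted p of 0.000751, and DESeq2 called 1 member, *Oas3*. The median log2 fold change of the 10 members was -0.21, -0.31, 0.10, -0.05, 0.07 and 0.10 in these comparisons in turn, and that of all tested genes was between -0.02 and 0.02. The comparisons of each run share samples and so are not independent.

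*Oas3*, an active synthetase that responds to long double-stranded RNA, was higher in every RNAi-deficient group. Wild-type samples had 12.4, 10.5 and 13.3 CPM, and Dicer ΔMT/ΔMT samples 25.6, 18.9, 18.5 and 18.4. Dicer SOM/SOM samples had 39.0, 44.6 and 52.8 CPM. The groups did not overlap, and each SOM/SOM sample was above each ΔMT/ΔMT sample. The log2 fold change was 0.75 (standard error 0.15, edgeR adjusted p = 0.00817) in ΔMT/ΔMT, a 1.68-fold rise, and 1.90 (0.17, adjusted p = 1.58e-05) in SOM/SOM, a 3.74-fold rise. Tested directly, SOM/SOM was above ΔMT/ΔMT by 1.15 (0.15, adjusted p = 0.00133).

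In the paired-end run, heterozygous controls had 12.02, 9.99, 9.46 and 10.6 CPM of *Oas3*. RNAi mutants had 40.9 and 38.3, and double mutants 73.5, 56.6, 73.9 and 62.0. Both mutants were clear of the controls, and every double mutant was above both RNAi mutants. *Oas3* was 3.76-fold higher in RNAi mutants (log2 fold change 1.91, standard error 0.16, edgeR adjusted p = 4.6e-06) and 6.31-fold higher in double mutants (2.66, 0.15, adjusted p = 3.68e-08). This was at the 97.2 percentile of the log2 fold changes of all tested genes. From RNAi to double mutants the log2 fold change was 0.75 (standard error 0.17, 95% confidence interval 0.38 to 1.12), with an edgeR adjusted p = 0.129. DESeq2 gave an adjusted p of 0.00454, and edgeR with a term for the set of ribosomal RNA content, added after the values were seen, 0.0174. Among the 6 libraries with more ribosomal RNA, 2 double mutants averaged 73.7 CPM, 2 RNAi mutants 39.6 and 2 controls 11.3. Among the other 5, double mutants averaged 59.3 and controls 9.72 CPM.

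**Figure D2:**
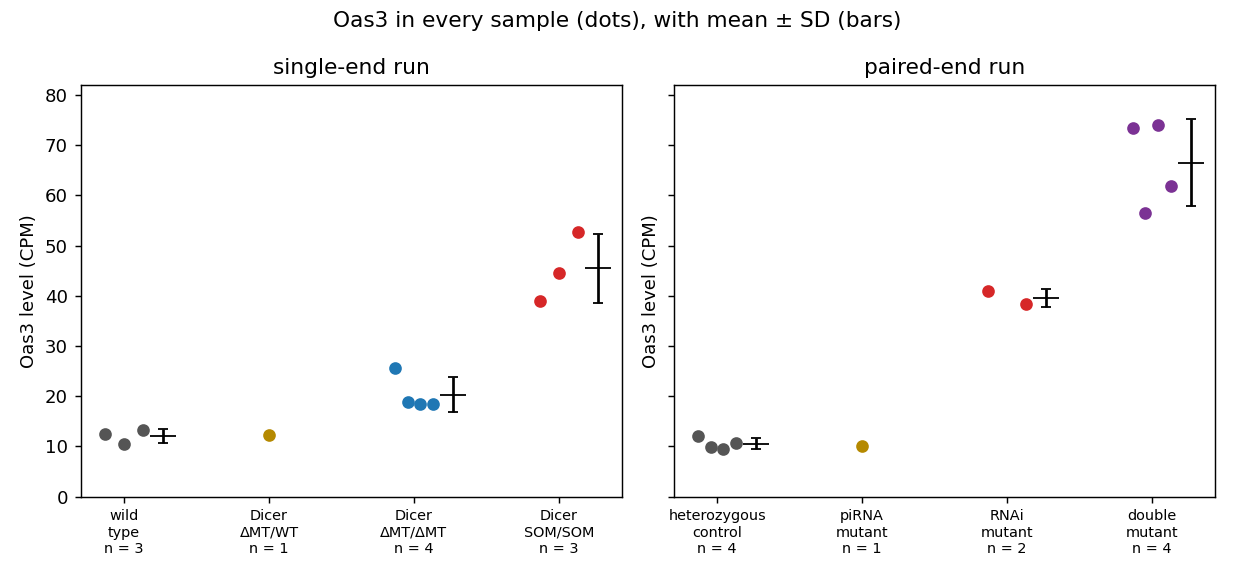
*Oas3* level in CPM in every sample (dots) with the mean and SD of each group of at least 2 samples (bars), for the single-end run (left) and the paired-end run (right). The 4 double mutants lie between 56.6 and 73.9 CPM, the 2 RNAi mutants at 38.3 and 40.9, and all 4 heterozygous controls at or under 12.02.

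Macrophage markers were called, higher or lower, in the groups where *Oas3* rose. Of 7 such markers 5 were tested. In Dicer ΔMT/ΔMT *Mrc1* was called lower (log2 fold change -1.66, edgeR adjusted p = 0.000323). In Dicer SOM/SOM *Cd68* and *Itgam* were called higher and *Mrc1* lower. In RNAi and in double mutants *Cd68* was called higher and *Mrc1* lower. *Ptprc* was called higher in double mutants, at a mean of 0.210 CPM against 0. Of all tested genes, 7.3% were called lower in ΔMT/ΔMT, and 14.5% higher and 14.2% lower in SOM/SOM. The shares were 10.7% in either direction in RNAi mutants, and 12.3% higher and 8.83% lower in double mutants. The summed level of the 7 was 45.5 to 49.6 CPM in wild type, 20.6 to 24.1 in ΔMT/ΔMT, 18 to 39.2 in SOM/SOM, 33.9 to 48.1 in controls, 18.1 to 21.6 in RNAi mutants and 16 to 36.3 in double mutants. *Adgre1* and *Aif1*, which define macrophages, had at most 3 counts in every sample of ΔMT/ΔMT, SOM/SOM, controls and RNAi mutants. In double mutants *Adgre1* had 32, 0, 3 and 5 counts and *Aif1* 9, 0, 0 and 0, and in wild type *Adgre1* had 10, 0 and 0 and *Aif1* at most 0.25. Double mutant replicate 1 held most of these *Adgre1* and *Aif1* counts. For *Ptprc* the double mutants had 14, 1, 0 and 13 counts, so replicate 4 held nearly as many as replicate 1. Without replicate 1, *Oas3* was higher in double mutants than in controls by 2.61 log2 units, and without replicate 4 by 2.70. The edgeR adjusted p was 2.03e-07 and 1.7e-07, and no fit left out both. Of 6 T and NK cell markers none was called higher against controls, nor of 4 B cell markers. The part of such cells in the *Oas3* values was not tested.

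*Oas2*, also an active synthetase, was close to the limit of detection in all samples, with 4.5 to 54.2 counts. Wild-type samples had 0.164, 0.121 and 0.458 CPM, ΔMT/ΔMT samples 0.584, 0.221, 0.388 and 0.378, and SOM/SOM samples 0.745, 0.848 and 1.02. All SOM/SOM samples were above all wild-type samples. *Oas2* was called there with a log2 fold change of 1.76 (standard error 0.51, edgeR adjusted p = 0.0251), but not without wild-type replicate 1 or 2 or SOM/SOM replicate 2 (adjusted p = 0.0824, 0.0786 and 0.0614), nor in a fit of these 2 groups alone (0.0505). In the paired-end run controls had 0.393, 0.366, 0.111 and 0.504 CPM, RNAi mutants 1.21 and 0.353, and double mutants 0.862, 0.587, 1.41 and 0.812. All double mutants were above all controls, at a log2 fold change of 1.42 (standard error 0.53) that missed the threshold (edgeR adjusted p = 0.0738). In RNAi mutants the value was 1.16 (0.63, adjusted p = 0.299), and the groups overlapped.

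*Oas1a* and *Oas1g*, the pair with intact active-site codons and shared reads, were not called in any comparison. *Oas1a* had 1.96, 0.706 and 0.948 CPM in wild type, 0.521 to 0.737 in ΔMT/ΔMT and 0.550 to 1.16 in SOM/SOM. *Oas1g* had 1.46, 0.947 and 0.915 CPM in wild type, 0.646 to 1.10 in ΔMT/ΔMT and 0.597 to 1.02 in SOM/SOM. In the paired-end run *Oas1a* lay between 0.361 and 0.664 CPM in controls and between 0.587 and 1.08 in double mutants, with overlap. Its log2 fold change in double mutants was 0.69 (95% confidence interval -0.15 to 1.53), and that of *Oas1g* 0.39 (-0.36 to 1.14). In SOM/SOM the values were -0.73 (-1.63 to 0.16) and -0.60 (-1.28 to 0.08). Fits at this depth therefore leave room for changes of more than 1 log2 unit in both genes.

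*Oas1b*, which keeps the active-site codons in a shortened frame, was called lower in Dicer ΔMT/ΔMT, Dicer SOM/SOM and double mutants. Wild-type samples had 6.26, 6.22 and 5.71 CPM, ΔMT/ΔMT samples 3.50, 4.81, 4.03 and 3.52, and SOM/SOM samples 3.39, 2.47 and 2.03. Neither mutant overlapped wild type, nor did the mutants overlap each other. The log2 fold change was -0.61 (standard error 0.17, edgeR adjusted p = 0.0337) in ΔMT/ΔMT and -1.15 (0.20, adjusted p = 0.00138) in SOM/SOM, or 43.4% of the wild-type mean. The step from ΔMT/ΔMT to SOM/SOM was -0.53 (0.19, adjusted p = 0.111). The call in ΔMT/ΔMT was lost when any sample except ΔMT/ΔMT replicate 2 was left out (adjusted p from 0.0672 to 0.103), while the call in SOM/SOM held in all 11 alternative fits.

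Heterozygous controls spread widely for *Oas1b*, with 6.37, 3.16, 6.54 and 3.53 CPM. RNAi mutants had 2.59 and 2.79, and double mutants 2.18, 2.51, 1.98 and 3.59. All RNAi mutants were below all controls, while double mutant replicate 4 overlapped them. In double mutants the log2 fold change was -0.94 (standard error 0.28, edgeR adjusted p = 0.0294), and in RNAi mutants -0.87 (0.36, adjusted p = 0.158). The first call was lost without double mutant replicate 1, 2 or 3 or control replicate 1 or 3 (adjusted p from 0.0656 to 0.0934).

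*Oas1f*, which lacks both aspartate codons, was called lower in Dicer ΔMT/ΔMT, Dicer SOM/SOM and double mutants. It had 57.6, 62.6 and 53.0 CPM in wild type, 40.6, 37.6, 45.2 and 42.3 in ΔMT/ΔMT, and 41.5, 43.7 and 40.9 in SOM/SOM. Every sample of both mutants was below every wild-type sample. The log2 fold change was -0.48 (standard error 0.09, edgeR adjusted p = 0.00538) in ΔMT/ΔMT and -0.45 (0.10, adjusted p = 0.006) in SOM/SOM. The difference between these mutants was 0.02 (95% confidence interval -0.18 to 0.23). Controls of the paired-end run had 24.3, 26.3, 25.8 and 22.5 CPM, RNAi mutants 16.5 and 16.9, and double mutants 19.3, 18.9, 15.3 and 15.1. No RNAi or double mutant sample reached the controls, while the piRNA mutant, at 23.9 CPM, lay within them. The value was -0.53 (0.14, adjusted p = 0.0154) in double mutants and -0.57 (0.18, adjusted p = 0.0567) in RNAi mutants, where DESeq2 gave 0.0117.

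*Oas1h*, which keeps 1 of the 2 codons, had 191, 185 and 218 CPM in wild type, 174, 161, 174 and 189 in ΔMT/ΔMT, and 184, 177 and 97.9 in SOM/SOM. The last value is that of the library with the lowest depth and the most *Gm42418*. Replicates 1 and 2 of SOM/SOM were just below the wild-type range. The fitted values of -0.18 (standard error 0.18) and -0.37 (0.19) did not pass the test (edgeR adjusted p = 0.53 and 0.176). Controls had 168, 208, 212 and 161 CPM, RNAi mutants 137 and 136, and double mutants 120, 154, 110 and 160. All RNAi and double mutant samples were below all controls. In double mutants the log2 fold change was -0.46 (0.15, adjusted p = 0.0365), and in RNAi mutants -0.46 (0.18, adjusted p = 0.136). The call was lost without double mutant replicate 1 or 3 or control replicate 2 or 3 (adjusted p from 0.0795 to 0.106).

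*Oas1c*, with the highest wild-type mean, had 1139, 1150 and 1101 CPM there. ΔMT/ΔMT samples had 1008, 906, 965 and 956, and SOM/SOM samples 951, 1035 and 860. Both mutants were below wild type in every sample. The log2 fold change was -0.24 (standard error 0.07, edgeR adjusted p = 0.0549) in ΔMT/ΔMT and -0.25 (0.08, adjusted p = 0.0374) in SOM/SOM. The second call held in only 3 of 11 alternative fits, and of the fits without 1 sample only in that without SOM/SOM replicate 2 (adjusted p up to 0.0997 in the others). Controls had 836, 990, 939 and 725 CPM, RNAi mutants 733 and 737, and double mutants 737, 886, 674 and 807, with overlap. The values of -0.25 (0.15) and -0.17 (0.12) did not pass the test.

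**Figure D3:**
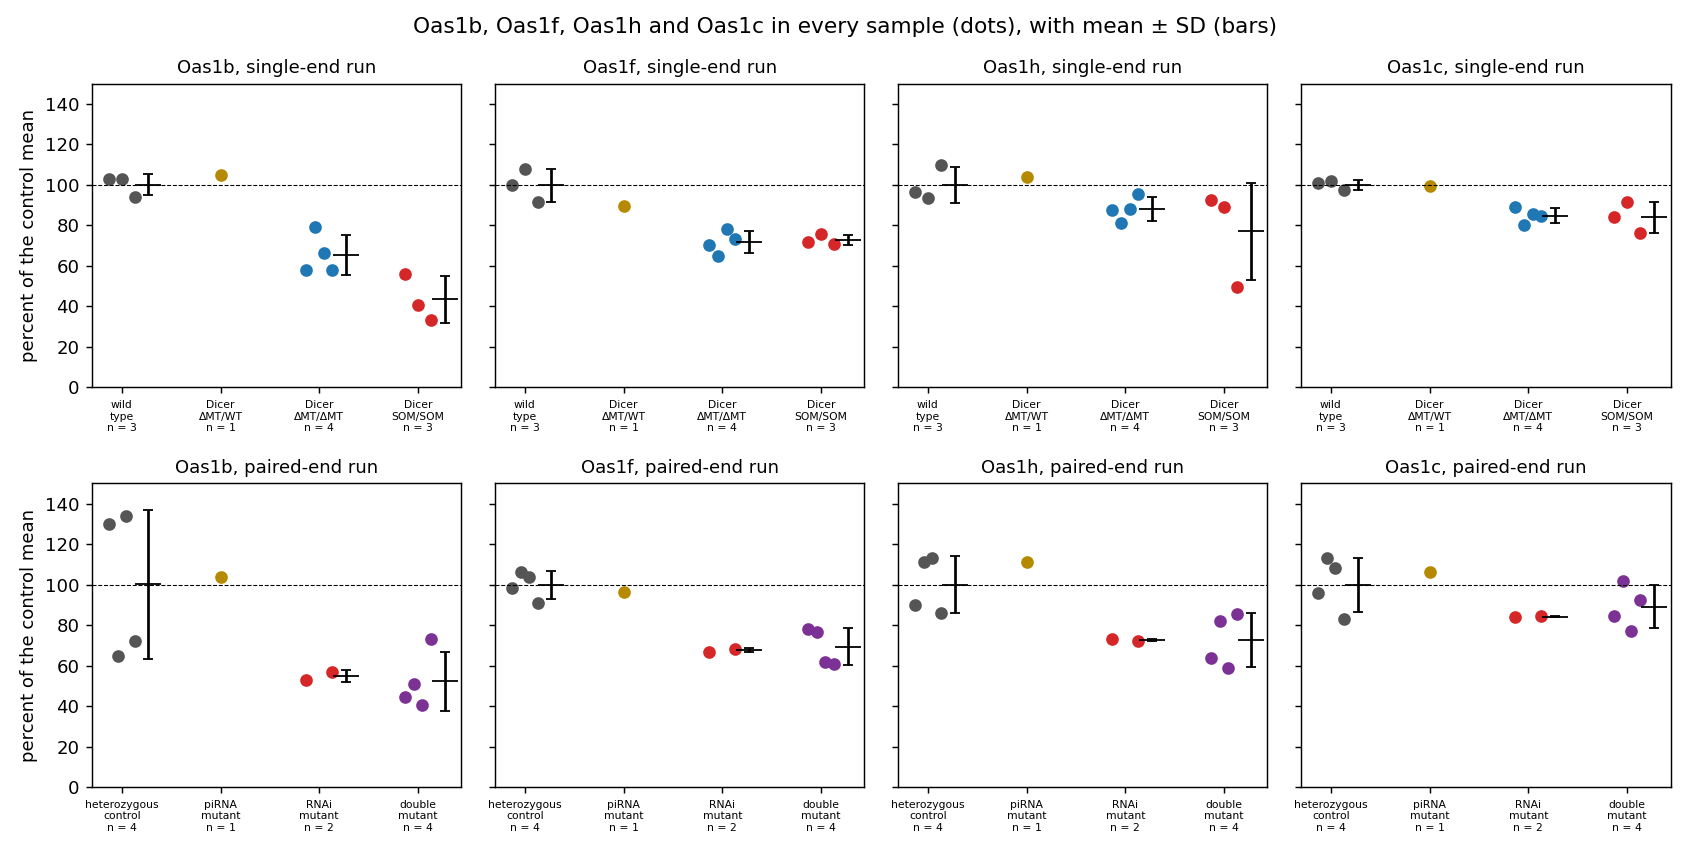
*Oas1b*, *Oas1f*, *Oas1h* and *Oas1c* in every sample (dots) as percent of the mean of the run's controls (dashed line at 100), with group mean and SD (bars), for the single-end run (top, against wild type) and the paired-end run (bottom, against heterozygous controls). *Oas1f* lies between 61 and 78.3 percent in all replicated mutant samples, while the controls of *Oas1b* in the paired-end run spread from 64.6 to 134 percent.

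*Oas1e* and *Oas1d*, abundant and without the aspartate pair, were not called in any of the 6 comparisons. *Oas1e* had 795, 758 and 882 CPM in wild type, 882, 816, 860 and 863 in ΔMT/ΔMT, and 1075, 1146 and 684 in SOM/SOM. Of all libraries, SOM/SOM replicate 1 had the second most *Gm42418*. The low value is again that of SOM/SOM replicate 3, the library with the fewest counts and the most *Gm42418*. With it the log2 fold change was 0.26 (standard error 0.16, edgeR adjusted p = 0.25), and without it 0.45 (adjusted p = 0.00151). Against ΔMT/ΔMT the value was 0.18 (0.15, adjusted p = 0.506) with it and 0.38 (adjusted p = 0.011) without it. In the paired-end run controls had 608, 778, 789 and 647 CPM, RNAi mutants 771 and 756, and double mutants 645, 842, 722 and 954. The groups overlapped, and the value in double mutants was 0.16 (95% confidence interval -0.13 to 0.46).

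*Oas1d* had 483, 515 and 560 CPM in wild type, 451, 427, 481 and 478 in ΔMT/ΔMT, and 569, 561 and 429 in SOM/SOM. Every ΔMT/ΔMT sample was below every wild-type sample, while SOM/SOM overlapped wild type. Its log2 fold change was -0.18 (95% confidence interval -0.41 to 0.05) and 0.00 (-0.24 to 0.25) in these mutants. Without SOM/SOM replicate 3, SOM/SOM was above ΔMT/ΔMT by 0.30 (edgeR adjusted p = 0.0401), against 0.18 (0.338) with it. Controls had 465, 530, 549 and 402 CPM, RNAi mutants 457 and 427, and double mutants 420, 466, 452 and 576. The values of -0.14 (-0.48 to 0.21) in RNAi mutants and -0.02 (-0.30 to 0.26) in double mutants did not pass the test.

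**Figure D4:**
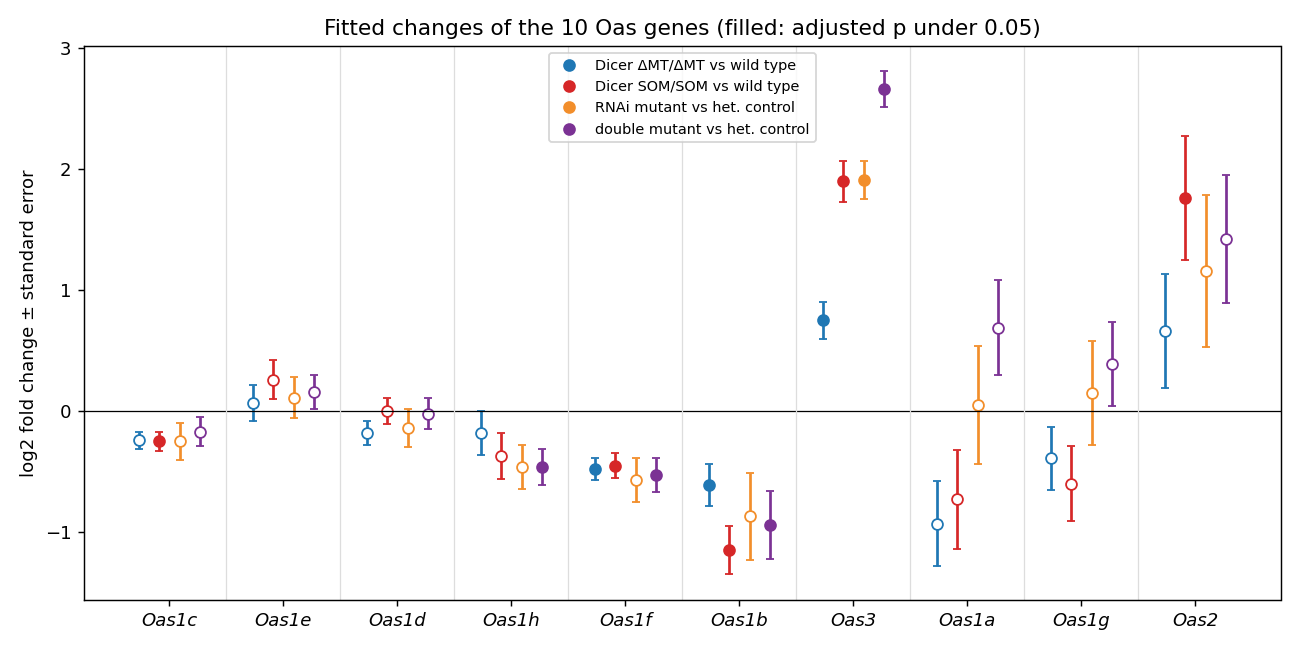
Log2 fold change of each Oas gene with its standard error from edgeR's fit, for the comparisons of each replicated mutant with its run's controls (colours). Filled points passed an adjusted p of 0.05. *Oas3* is filled in all 4 and rises up to 2.66, while *Oas1c*, *Oas1e* and *Oas1d* stay within 0.26 log2 units of 0.

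Levels of *Oas1e* and *Oas1d* went with the ribosomal RNA content of the paired-end libraries. In the 5 libraries with less *Gm42418*, *Oas1e* had 778 to 954 CPM and *Oas1d* 466 to 576. In the 6 with more, they had 608 to 771 and 402 to 465, without overlap. The members' share of all counts was 0.247% to 0.267% in the first and 0.199% to 0.218% in the second. The other 8 members overlapped between the sets. The share of all genes without such overlap is not given here, so the split cannot be read as particular to *Oas1e* and *Oas1d*. With the set as a term, the same number of members was called in double mutants against controls, 4. The part of ribosomal RNA in the levels was not tested.

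The single samples were placed by their values only. The share of all genes outside the range of the controls is not given here, so such places cannot be read as traits of these members. The Dicer ΔMT/WT sample had 12.3 CPM of *Oas3*, within the wild-type range, and 7 members in all lay within it. *Oas1b* was above it, with 6.36 CPM against up to 6.26, and *Oas1a* (0.674) and *Oas1f* (51.7) were below. The piRNA mutant had 10.1 CPM of *Oas3*, within the range of heterozygous controls, and 8 members lay within. *Oas1e* (865 CPM) and *Oas1d* (574 CPM) were above all controls, also above the 2 controls of the same ribosomal RNA set, which had at most 789 and 549.

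Between older females (35 to 40 weeks) and younger ones (10 to 17 weeks) of the double mutants and controls, 0 of 10 members were called, and 0% of 18641 genes were (0 genes by edgeR, 1022 at an unadjusted p under 0.05). For *Oas3* the difference was 0.01 (95% confidence interval -0.32 to 0.35). The change in Dicer SOM/SOM was also compared between the runs, with unlike contrasts. The single-end one sets 2 SOM alleles against none, and the paired-end one 2 against 1, in females that all carry Mili DAH. *Dicer1* itself differed by -0.91 log2 units between them (edgeR, unadjusted p = 0.000162, not past the adjusted threshold). The difference was called in 0 of 10 members, where 0.00806% of 24824 genes were called (2 genes). For *Oas3* the effects differed by -0.04 (-0.52 to 0.45), and for *Oas1b* by -0.31 (-1.17 to 0.55). Wider intervals were found for the scarce members, such as -1.18 to 2.31 for *Oas2*.

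Of 4 related genes, *Oasl1*, which lacks synthetase activity, had 3.83 ± 0.44 CPM (SD, n = 3) in wild type and 3.92 ± 0.682 (n = 4) in controls. *Oasl2*, which is active, had 0.540 ± 0.168 and 1.30 ± 0.397 CPM. *Abce1*, which recycles ribosomes and is also known as an inhibitor in the 2-5A pathway, had 13.9 ± 2.3 and 21.7 ± 4.67, and *Pde12*, which degrades 2-5A, 17.6 ± 0.647 and 21.1 ± 2.34. None of these 4 genes was called in any of the 6 comparisons by edgeR. Their log2 fold changes in Dicer SOM/SOM lay between 0.11 for *Pde12* and 1.05 for *Oasl2*, whose 95% confidence interval was -0.37 to 2.48.

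Of 24 double-stranded RNA sensors and interferon signalling genes, 19 were tested. Of these, 2 rose and 2 fell in Dicer SOM/SOM, where 14.5% of all tested genes rose and 14.2% fell, with a median log2 fold change of 0.04 against 0.02 for all genes. *Ddx58*, the sensor RIG-I, fell by 1.01, and *Tlr3*, an endosomal sensor, by 0.72. *Ifngr2* rose by 1.59 and *Irf3* by 0.47 (edgeR adjusted p from 0.000381 to 0.0442). In double mutants 3 were called higher and 2 lower (12.3% and 8.83% of all genes), and *Ddx58* fell by 0.93, *Tlr3* by 0.81, while *Irf3* rose by 0.66 and *Ifnar1* by 0.49. Of 32 interferon-stimulated genes, 17 were tested in the single-end run and 18 in the paired-end run. In SOM/SOM 1 was called higher and 2 lower, and in double mutants 2 and 2, to be read against the same shares of all genes. *Cmpk2* fell by 1.11 and *B2m* by 0.54 in SOM/SOM, and in double mutants *Igtp* rose by 1.39 while *Parp14* fell by 1.28 and *Dtx3l* by 1.04. *Ifi44*, named after its values were seen since it stayed under 1 CPM, rose in both (log2 fold change 3.20 and 2.36, adjusted p = 0.000913 and 0.00547).

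The 37 other genes within 500 kb of the cluster were set beside the members. In the single-end run 20 were tested, with a median log2 fold change of -0.02 in Dicer SOM/SOM. There 1 was called higher (*Slc8b1*, at 0.218 CPM), where 14.5% of all tested genes were. In double mutants 1 of 21 was called higher and 2 lower, where 12.3% and 8.83% of all tested genes were. *Rph3a*, the nearest tested gene on the right, beyond *Oas1d*, had a log2 fold change of -0.19 (edgeR adjusted p = 0.25) in SOM/SOM. In double mutants its value was 0.03 (adjusted p = 0.941). *Rasal1*, the nearest tested gene on the left, beyond *Oas2*, had 0.00 (adjusted p = 0.995) in SOM/SOM. It was called lower in double mutants by -0.99 (edgeR adjusted p = 0.0441), with 0.744 CPM against 1.49 in controls. *Oas3* rose by 1.90 and 2.66 in these 2 comparisons.

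The genes whose log2 CPM was most like that of *Oas1c* over the 10 replicated single-end samples were *Gimap8* (Pearson r = 0.972), *Gm49654* (0.968) and *Ryr2* (0.966). For *Oas1d* they were *Stx18* (0.974), *Gle1* (0.960) and *Xrcc1* (0.947), and for *Oas1e* *Gm8337* (0.963), *Gm8326* (0.956) and *Msh3* (0.953). Over the 11 paired-end samples, where these genes were not chosen, the same r was between 0.1 (*Oas1d* with *Xrcc1*) and 0.770 (*Oas1e* with *Gm8337*). Within the family, *Oas1a* and *Oas1g*, which share reads, had r = 0.846 (n = 10) in the single-end run and 0.658 (n = 11) in the paired-end run. *Oas1d* and *Oas1e* had 0.709 and 0.742, *Oas1c* and *Oas1f* 0.884 and 0.718, and *Oas1b* and *Oas3* -0.944 and -0.786. These points share genotype, library and depth, so the coefficients only describe the samples.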

How the data were processed

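RNA of GV oocytes was sequenced after amplification with the Ovation RNA-seq kit V2. The authors mapped reads with STAR 2.5.3a to mm10 (GRCm38), keeping reads with many places, and counted them without strand on GENCODE M15 genes with featureCounts, dividing multi-mapped reads into fractions. The deposited values are therefore each an expected count (a raw estimated count, which need not be whole), made by the authors without normalization. They were rounded to whole numbers, and each run was fitted separately with edgeR 4.0.16 (R 4.3.3): TMM, filterByExpr (minimum count 10, total 15), quasi-likelihood F test, Benjamini-Hochberg adjustment, adjusted p under 0.05. A fit used all replicated groups of its run, and the single Dicer ΔMT/WT and piRNA mutant samples were left out of the fits. Standard errors are the size of the log2 fold change divided by the root of F, and intervals cover 95%. CPM per kb divides CPM by the exon length in the table. The study calls its replicates biological, but whether they came from separate females is not given in the sources used here, so p-values measure the spread between these samples.

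Members and gene lists were chosen with earlier results of these data known. Named genes are all members, the 2-5A genes (1 of them is not reported here), *Dicer1*, up to 4 called genes per list with the largest log2 fold changes at a group mean of at least 1 CPM in Dicer SOM/SOM against wild type and in double mutants against controls, and the 3 genes most correlated with *Oas1c*, *Oas1d* and *Oas1e*. Coding stretches came from GENCODE M21 transcripts on GRCm38 by alignment to *Oas1a*, and promoters from RefSeq. The test was tried on simulated data. Alternatives were DESeq2 1.42.0, RLE factors, no filter, a fit of 2 groups, a replicate block, an age term, younger animals only, each sample left out, and, added after seeing the values, a term for ribosomal RNA content (parted at 1000 CPM of *Gm42418*). Numbers in the sample titles were checked for pairing: same-numbered samples of different genotypes correlated by -0.0253 to 0.0537 in the single-end and -0.0691 to 0.177 in the paired-end run, so they were not taken as pairs.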

Additional observations from a re-analysis of the deposited data

Results flagged for a closer look

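*Oas3* in Dicer ΔMT/ΔMT replicate 1 stood apart from the other 3 samples of its genotype, with 25.6 CPM against 18.4 to 18.9. It was the only such case among 30 sets of 4 samples, of which chance flags about 1 in 20. The call of *Oas3* in ΔMT/ΔMT held without this sample.

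In samples that entered no comparison, *Oas1b* had 6.36 CPM in the single Dicer ΔMT/WT sample, above all 3 wild-type samples. *Oas1d* with 574 CPM and *Oas1e* with 865 CPM in the single piRNA mutant were above all 4 heterozygous controls. Both are single samples without a replicate check.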

How the results depend on the processing

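*Oas3* kept its call in all 65 alternative fits of the 5 comparisons in which it was called. Of 1050 alternative values for single members, 923 kept direction and side of the threshold, 32 lost a call and 10 gained one, and 85 changes of sign all concerned values without a call. In Dicer SOM/SOM against wild type, a fit of these 2 groups alone called 3 members in place of 5, with fewer samples to estimate the spread. DESeq2 called 2 members in place of 1 in RNAi mutants against controls (*Oas1f* added) and 1 in place of 0 in double against RNAi mutants (*Oas3*), and the ribosomal RNA term also gave 1 there. Younger animals only, with 2 double mutants and 2 controls, left 1 of 4 members called against controls, *Oas3*. With 1 sample left out, 2 to 3 members were called in ΔMT/ΔMT against wild type, 3 to 5 in SOM/SOM against wild type, 1 to 3 in SOM/SOM against ΔMT/ΔMT (3 without SOM/SOM replicate 3, 2 without replicate 1), 1 in RNAi mutants against controls, 2 to 4 in double mutants against controls, and 0 in double against RNAi mutants, between ages and between runs. For SOM/SOM against wild type the count was 3 without wild-type replicate 1 or 2, and for double mutants it was 2 without double mutant replicate 1 or 3 or control replicate 3.

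The title numbers were not taken as pairs, although the check had no differently numbered samples beside it and cannot exclude pairing. With the title numbers as a replicate block, 2 members were called in ΔMT/ΔMT (3 without the block) and 4 in SOM/SOM (5). There was 1 between these mutants, 1 in RNAi mutants, 4 in double mutants and 0 in double against RNAi mutants. Calls of *Oas1b* in ΔMT/ΔMT and *Oas1c* in SOM/SOM ended with the block (adjusted p = 0.12 and 0.0637). Depth limits *Oas1a*, *Oas1g* and *Oas2*, whose median counts per sample were 26.6, 40.2 and 23.4.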
